A study of Mus musculus with 4 samples.

Results

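The Sonic hedgehog pathway genes described here are 9 genes, Gli1, Gli2, Ptch1, Hhip, Smo, Boc, Cdon, Gas1 and Sufu, taken by symbol from the 35857 genes of the deposited tables. All 9 were found. They were measured by poly(A) RNA sequencing in glial progenitors formed in culture from mouse neural stem cells, of embryonic cerebral cortex and of the C57BL/6 strain, 24 hr after glial differentiation was induced. There were 2 libraries of Qk-/- cells (Qk_KO) and 2 of wild-type cells (control), and the labels name no deleted exon, Cre line or clone, nor whether a group's libraries came from different cultures. Qk encodes Quaking, an RNA-binding protein of the STAR family. If the libraries of a group share a culture, the spread between them, and any p-value resting on it, is technical in part.

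Hedgehog signalling starts when a secreted ligand such as Sonic hedgehog binds the receptor Patched1, the product of Ptch1. Boc, Cdon and Gas1 are cell-surface co-receptors that help the ligand bind. Unbound Patched1 holds the transmembrane protein Smoothened (Smo) inactive, and binding of the ligand releases it, so that Smoothened gathers in the primary cilium and the Gli transcription factors are activated. Sufu keeps Gli proteins in the cytoplasm, Gli2 is mainly an activator, and Gli1, Ptch1 and Hhip are themselves target genes that serve as readouts of the signal. In the forebrain the pathway is known for ventral patterning, for the upkeep of neural stem cells and for the formation of oligodendrocyte precursors.

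Values are TPM, a share of all transcripts corrected for transcript length, so levels of different genes can be compared. The unit carries no read number, so the depth of the libraries is unknown, and fewer expressing cells cannot be told apart from less RNA per cell. Each library detected between 18846 and 19387 genes, and Qk stood at 36.1 and 43.7 TPM in Qk_KO replicates 1 and 2, against 208 and 215 TPM in control replicates 1 and 2 (log2 fold change -2.38, adjusted p = 0.00708 by limma). The adjusted p of Qk was 0.0554 without control replicate 1 and 0.0772 without control replicate 2. Of the marker lists, radial glia and neural stem cell genes summed to between 6490 and 6650 TPM in Qk_KO and between 6349 and 6514 TPM in control libraries, with Sox2, Nes and Fabp7 present in all 4. Vim, at 2346 to 3373 TPM, and Fabp7, at 2354 to 3144 TPM, made up most of each sum. Within the list, Slc1a3 was lower in each Qk_KO library than in either control. Pax6, Prom1, Vim and Hes1 were higher, and the rest of the list overlapped between groups. Endothelial genes summed to at most 7.73 TPM, with 2 of 9 genes at a mean of at least 1 TPM.

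Of the 9 genes, 7 were tested between Qk_KO and control cells, and none of these passed. The 7 that averaged 1 TPM or more across all libraries were tested by limma on log2(TPM + 1), and 0 of 7 had a Benjamini-Hochberg adjusted p under 0.05, beside 3.24% of the 13260 genes tested (1.83% higher and 1.42% lower in Qk_KO). With an unadjusted p under 0.05 there were 3 of the 7, Gli2, Boc and Sufu, or 42.9%, beside 28.4% of all genes tested. The same 3 genes were the tested members whose groups did not overlap, and all 3 lay higher in Qk_KO; 61.1% of all genes tested did not overlap, 33.6% with Qk_KO higher and 27.5% with Qk_KO lower. Hhip and Gli1 lay below the level required for testing. Marker sums whose groups did not overlap included those of 13 neuron genes, at 1191 and 1264 TPM in Qk_KO against 879 and 651 TPM in control. Tubb3 took 512 and 383 TPM of the Qk_KO sums and 275 and 126 TPM of the control sums. Tubb3, Gap43, Ina, Snap25 and Rbfox3 were higher in each Qk_KO library than in either control. Map2, Dcx, Stmn2, Syt1, Nefl, Nefm, Elavl3 and Elavl4 overlapped between groups. Sums of 13 microglia and macrophage genes were also apart, at 45.4 and 31.5 TPM in Qk_KO against 88.1 and 75.6 TPM in control. Of the 13 microglia and macrophage genes, 10 were lower in each Qk_KO library than in either control, among them Lyz2 at 18.4 and 11.9 TPM in Qk_KO against 32.4 and 28.9 TPM in control libraries, while the defining gene P2ry12 was at most 0.04 TPM in any library. The sums of 10 astrocyte genes, at 717 and 639 TPM in Qk_KO libraries against 772 and 812 TPM in control libraries, did not overlap either, but their direction rests on the glutamate transporter gene Slc1a3. Without Slc1a3 the other 9 summed to 600.2 and 489 TPM in Qk_KO libraries against 434 and 377 TPM in control libraries. Of these sums Aldh1l1 took 229 and 108 TPM in Qk_KO against 52.0 and 32.9 TPM in control libraries. Aldh1l1 and Aqp4 were higher in each Qk_KO library than in either control, and Gja1 and S100b were lower. The rest of those 9 overlapped between groups. The part of these marker genes in the values of Gli2, Boc, Sufu and Hhip was not tested.

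In order of level, Smo was the most abundant, at 78.4 to 96.4 TPM over the 4 libraries, and its range lay above that of Ptch1, at 37.7 to 60.4 TPM. The ranges of Ptch1 and Cdon (34.8 to 71.5 TPM) overlapped, as did those of Sufu, Boc and Gas1, each with its neighbour in this order. Gas1 and Gli2 did not overlap. Gli2 and Hhip both reached values near 1 TPM, and Gli1, at 0.04 to 0.10 TPM, stood below every value of the other 8.

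**Figure D1:**
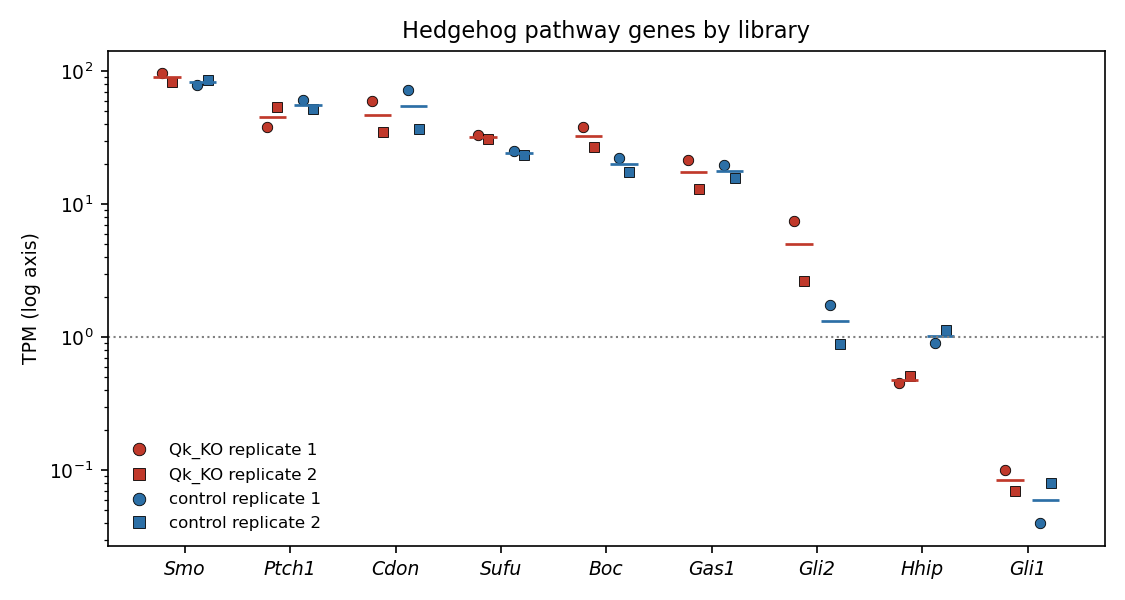
TPM of the 9 genes in each library, on a log axis, with Qk_KO libraries in red left of the control libraries in blue; short lines are group means of 2 libraries, and the dotted line marks 1 TPM. Smo lies between 78.4 and 96.4 TPM and Gli1 at 0.10 TPM or below in all 4 libraries, and the groups are apart for Gli2, Boc, Sufu and Hhip.

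Gli1, the transcription factor gene most often used as a readout of hedgehog signalling, was close to 0 in both groups. It stood at 0.10 and 0.07 TPM in Qk_KO replicates 1 and 2, against 0.04 and 0.08 TPM in control replicates 1 and 2. The groups overlapped, and every value was far under the 1 TPM asked for testing. Gli1 (Entrez gene 14632) occupies the minus strand of GRCm38 chromosome 10, from 127329882 to 127341974. With all genes above 0 admitted to the fit, its log2 fold change was 0.03 and the adjusted p 0.719 (limma).

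Ptch1, both receptor and target gene, was present at a moderate level in both groups, unlike Gli1. It stood at 37.7 and 53.5 TPM in Qk_KO libraries, against 60.4 and 51.8 TPM in control libraries. Qk_KO replicate 1 was the lowest of the 4, while Qk_KO replicate 2 lay between the controls. Ptch1 thus averaged 45.6 ± 11.1 TPM in Qk_KO and 56.1 ± 6.07 TPM in control cells (SD, n = 2 each), a difference smaller than the gap between the Qk_KO libraries. Its log2 fold change was -0.31 (SE 0.19, 95% interval -0.78 to 0.16, adjusted p = 0.326 by limma), and without Qk_KO replicate 1 it was -0.06. On the fold scale the interval runs from 0.584 to 1.11, so a lower level, no difference and a slightly higher level are all within it. Ptch1 (Entrez gene 19206) occupies the minus strand of chromosome 13, from 63508328 to 63573598.

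Hhip, which encodes a membrane protein that binds and sequesters hedgehog ligands, was the other target gene, and it was low. Hhip stood at 0.45 and 0.51 TPM in Qk_KO libraries, against 0.90 and 1.13 TPM in control libraries. Hhip was lower in each Qk_KO library than in either control, and the ratio of the means was 0.473, from 0.480 ± 0.0424 TPM in Qk_KO and 1.02 ± 0.163 TPM in control cells (SD, n = 2 each). Its mean over the 4 libraries was 0.748 TPM, under the 1 TPM asked for testing. With all genes above 0 admitted, its log2 fold change was -0.44 and the adjusted p 0.180 (limma); the added 1 TPM makes this scale understate changes of low genes. Hhip (Entrez gene 15245) occupies the minus strand of chromosome 8, from 79965851 to 80058006.

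Quaking binds RNA at a short core written ACUAAC or ACUAAU, here searched as ACTAAC and ACTAAT on the sense strand of the longest annotated 3′ UTR of each gene (GENCODE M21, GRCm38). The core was found in 3 of the 9 genes, Ptch1, Hhip and Cdon, and each of their cores was ACTAAT. It was not found in these windows of Gli1, Gli2, Smo, Boc, Gas1 or Sufu. Of 12254 tested genes with an annotated 3′ UTR, 35.3% held at least 1 core. The 3 genes with a core also had the longest 3′ UTRs of the 9, of 3205 bases for Ptch1, 6480 for Hhip and 3432 for Cdon. Among tested genes with a 3′ UTR within 20% of the same length, 61.8%, 84.8% and 64.9% held a core, so its presence in these genes is common for their length. Ptch1 and Cdon did not pass the test, Hhip was below the level for testing, and a match of letters is no evidence of binding. The sites are shown because Quaking is the product of Qk, the gene labelled as knocked out in these cells. Its protein was not measured here. Each site is printed from its transcript strand, 5′ to 3′, with the core in capitals. The GRCm38 positions of the printed bases are on the minus strand for Ptch1 and Hhip and on the plus strand for Cdon.
Ptch1, chr13:63509446-63509475: aaattgtaaggtACTAATtggaagccacct
Ptch1, chr13:63508836-63508865: tatagagtgcttACTAATgttaaatagttc
Hhip, chr8:79968170-79968199: acatatctgattACTAATatggcatagaac
Hhip, chr8:79966617-79966646: ttctgttaatacACTAATaagaggcagaag
Hhip, chr8:79966480-79966509: tcttgagtttgcACTAATctggctcactaa
Cdon, chr9:35504758-35504787: ttccagaaaaacACTAATactgatttattt
Cdon, chr9:35505965-35505994: ataagatactgtACTAATcaactttatata

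The core of the Gli binding motif, CCACCCA on either strand, was looked for in RefSeq promoter windows of 300 bases (GRCm38.p6), which matched 7 of the 9 genes, all but Gli1 and Boc. None of these 7 windows held it, beside 9.34% of 13390 windows of tested genes. The windows of Ptch1 (chr13:63565686-63565985) and Cdon (chr9:35451826-35452125) lie inside the gene spans given here, away from their outer starts. These letters are therefore absent from the windows used, which says nothing of sites elsewhere.

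Gli2, the main activator of the Gli family, had the largest log2 fold change of the members. It stood at 7.46 and 2.65 TPM in Qk_KO libraries, against 1.76 and 0.89 TPM in control libraries. Both Qk_KO values lay above both control values, but Qk_KO replicate 1 was itself 2.82-fold above Qk_KO replicate 2. Gli2 averaged 5.06 ± 3.40 TPM in Qk_KO and 1.33 ± 0.615 TPM in control cells (SD, n = 2 each). The log2 fold change was 1.28 (SE 0.44, 95% interval 0.18 to 2.38), with an adjusted p of 0.135 by limma. Of the genes tested, 1.95% had a larger absolute log2 fold change, but 21.7% had a smaller p by limma. Without Qk_KO replicate 1 the log2 fold change was 0.68, and without Qk_KO replicate 2 it was 1.89. The added 1 TPM makes this scale understate changes of low genes such as Gli2. With 0.1 TPM added instead, its log2 fold change over all libraries was 1.75, and the ratio of the means was 3.82. The gene (Entrez gene 14633) occupies the minus strand of chromosome 1, from 118834132 to 119053619.

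Qk_KO replicate 1 also stood apart in genes of other identities. Dlx1 and Dlx2, transcription factors of ventral forebrain progenitors and interneurons, were at 36.7 and 76.0 TPM in Qk_KO replicate 1, against at most 2.03 and 2.60 TPM in the 3 other libraries. The 13 ventral forebrain and interneuron genes summed to 328 and 165 TPM in Qk_KO libraries and to 178 and 131 TPM in control libraries. Of these, Nkx2-1 and Lhx6 were at most 0.52 TPM in any library. The 11 genes of pericytes, fibroblasts and meninges summed to 3533 and 1662 TPM in Qk_KO and to 1361 and 1204 TPM in control cells. Acta2, a smooth muscle actin gene that other cultured cells also express, took 3484 and 1604 TPM of the Qk_KO sums and 1289 and 1130 TPM of the control sums. Without Acta2 the other 10 summed to 48.9 and 58.3 TPM in Qk_KO libraries, against 72.3 and 74.9 TPM in control libraries. Their part in the Gli2 values was not tested.

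Gli3, the family member known mainly as a repressor, was not among the 9 genes and is given beside Gli2 because of that opposite role. It stood at 8.60 and 6.92 TPM in Qk_KO libraries, against 9.65 and 13.8 TPM in control libraries, with a log2 fold change of -0.53 and an adjusted p of 0.177 (limma). Gli3 was lower in each Qk_KO library than in either control. Gli2 made up 46.2% and 27.5% of the summed Gli1, Gli2 and Gli3 TPM in Qk_KO replicates 1 and 2, against 15.4% and 6.03% in control replicates 1 and 2. The groups did not overlap in this share, which follows from both genes' levels and was not tested on its own. Gli1 made up at most 0.726% of the sum.

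**Figure D2:**
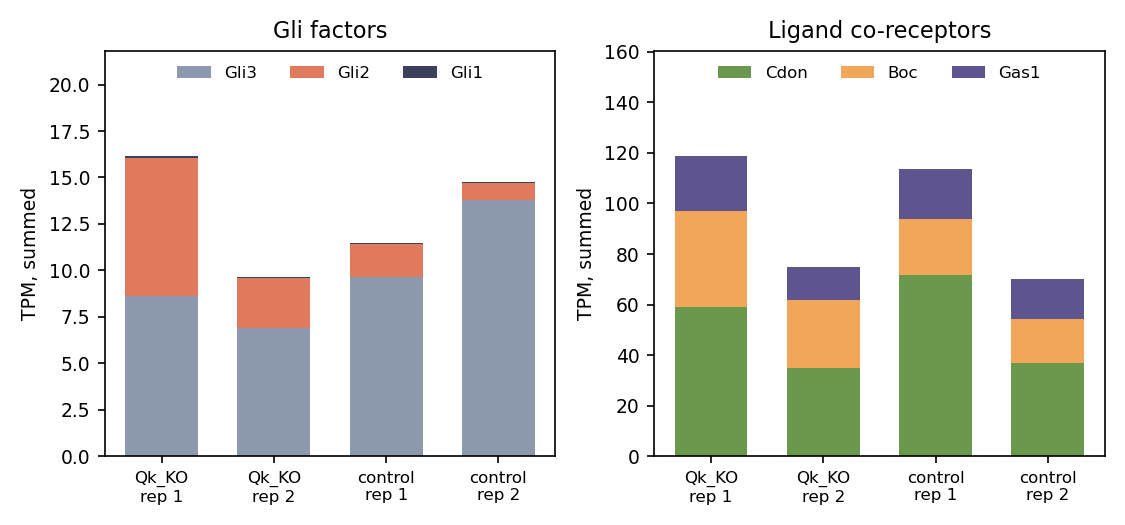
Summed TPM of the Gli transcription factors (left) and of the co-receptors Cdon, Boc and Gas1 (right) in each library, with Qk_KO libraries left of control libraries; each bar is 1 library. Gli2 takes 46.2% and 27.5% of the Gli sum in Qk_KO, against 15.4% and 6.03% in control, and the co-receptor sums are higher in replicate 1 of each group than in replicate 2.

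Of the 3 co-receptors, Boc lay higher in Qk_KO, and Cdon and Gas1 overlapped between groups. Boc, an immunoglobulin superfamily receptor that binds the ligand with Patched1, stood at 38.0 and 27.0 TPM in Qk_KO libraries, against 22.3 and 17.5 TPM in control libraries. The groups were apart, with a difference of the means larger than the gap within either group. The averages were 32.5 ± 7.77 TPM in Qk_KO and 19.9 ± 3.34 TPM in control cells (SD, n = 2 each), and the log2 fold change was 0.67 (SE 0.20, 95% interval 0.16 to 1.18, adjusted p = 0.109 by limma). Without Qk_KO replicate 1 the log2 fold change was 0.43. Boc (Entrez gene 117606) occupies the minus strand of chromosome 16, from 44485049 to 44558897.

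Cdon, a receptor of the same structural family as Boc, stood at 59.2 and 34.8 TPM in Qk_KO libraries, against 71.5 and 36.9 TPM in control libraries. Replicate 1 was the higher library in both groups, by 1.70-fold in Qk_KO and 1.94-fold in control cells, and this spread exceeded the difference of the means. The log2 fold change was -0.18 (95% interval -1.10 to 0.75, adjusted p = 0.787 by limma). It was 0.20 without Qk_KO replicate 2 and 0.29 without control replicate 1, so its direction rests on single libraries. Gas1, a co-receptor anchored by a lipid, stood at 21.6 and 13.03 TPM in Qk_KO libraries, against 19.6 and 15.8 TPM in control libraries. Its log2 fold change was -0.07 (95% interval -0.69 to 0.56, adjusted p = 0.887 by limma), and it was 0.28 without Qk_KO replicate 2 and 0.08 without control replicate 1. Cdon (Entrez gene 57810) occupies the plus strand of chromosome 9, from 35421128 to 35507652, and Gas1 (Entrez gene 14451) the minus strand of chromosome 13, from 60174405 to 60177365.

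The co-receptors together summed to 119 and 74.9 TPM in Qk_KO libraries, against 113 and 70.3 TPM in control libraries. Boc took 32.0% and 36.1% of that sum in Qk_KO and 19.6% and 24.96% in control cells. The sums overlapped between groups, and the Boc shares did not. Neither the sums nor the shares were tested on their own.

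Smo, the signal transducer that Patched1 inhibits, stood at 96.4 and 82.7 TPM in Qk_KO libraries, against 78.4 and 86.4 TPM in control libraries. The groups overlapped, and the averages were 89.6 ± 9.64 TPM in Qk_KO and 82.4 ± 5.63 TPM in control cells (SD, n = 2 each). The log2 fold change was 0.12 (SE 0.12, 95% interval -0.18 to 0.41, adjusted p = 0.548 by limma), which bounds the fold between 0.885 and 1.33. Smo (Entrez gene 319757) occupies the plus strand of chromosome 6, from 29735503 to 29761365. The ratio of Ptch1 to Smo was 0.391 and 0.646 in Qk_KO libraries and 0.770 and 0.599 in control libraries, and the groups overlapped.

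Sufu, the cytoplasmic inhibitor of Gli proteins, was the member with the smallest fold between libraries of a group, 1.07 in both Qk_KO and control cells. It stood at 33.1 and 30.8 TPM in Qk_KO libraries, against 25.1 and 23.5 TPM in control libraries. All Qk_KO values lay above the control values, by more than the gap within either group. The averages were 32.0 ± 1.62 TPM in Qk_KO and 24.3 ± 1.15 TPM in control cells (SD, n = 2 each), a ratio of 1.31. Its log2 fold change was 0.38 (SE 0.11, 95% interval 0.10 to 0.66), with an adjusted p of 0.104 by limma, the smallest of the members; 29.9% of the genes tested had a larger absolute log2 fold change. It stayed between 0.33 and 0.43 whichever library was left out. Sufu (Entrez gene 24069) occupies the plus strand of chromosome 19, from 46396896 to 46488804.

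**Figure D3:**
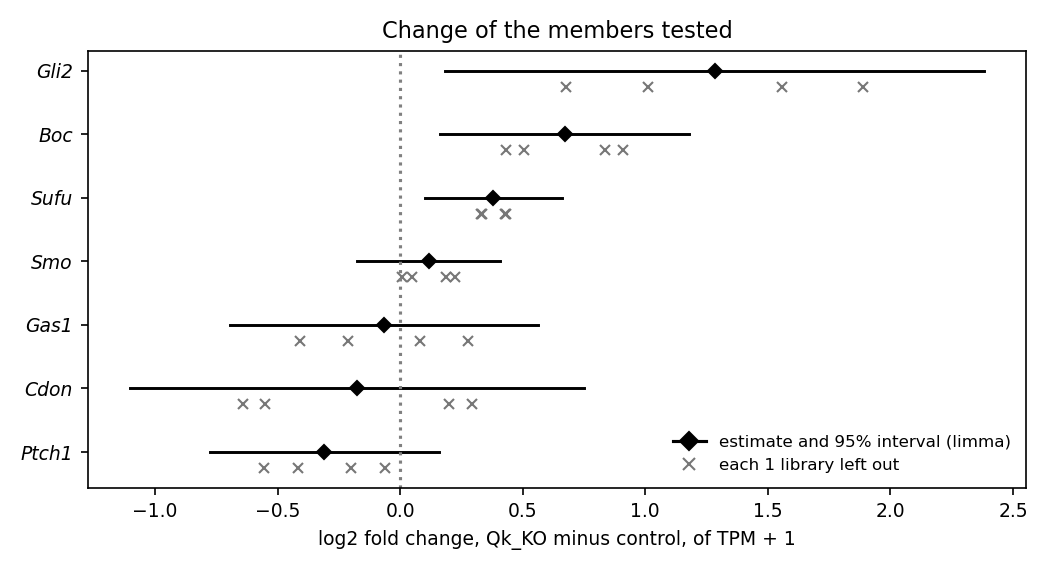
Log2 fold changes of TPM + 1, Qk_KO minus control, for the 7 members tested; diamonds and lines are the limma estimate with its 95% interval for 1 gene, and crosses are the estimates with each 1 library left out. The intervals of Gli2, Boc and Sufu lie above 0 before adjustment for the 13260 genes tested, and the crosses of Cdon and Gas1 fall on both sides of 0.

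The other genes of the pathway were taken from 5 lists with 79 genes, of which 69 were tested. Only Ccnd1 among them passed the test; 0 rose, 1 fell and 68 were not called, beside the 3.24% called over all genes. The median log2 fold change of the 69 was 0.11, beside 0.04 over all genes tested. Groups were apart for 41.2% of the tested target genes and for 65.2% of the cilium genes, beside 61.1% over all genes.

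The ligands themselves were nearly absent. Shh stood at 0.28 and 0.13 TPM in Qk_KO libraries, against 0.21 and 0.14 TPM in control libraries, and Ihh at 0.18 and 0.28 TPM, against 0.20 and 0.18 TPM. Dhh, at 1.17 to 1.81 TPM over the 4 libraries, was the only ligand at a mean of at least 1 TPM. These 3 genes are named here after their values were seen. In the list of ligands and ligand release, 0 of 5 genes tested were called and the median log2 fold change was 0.36. Disp2, a relative of the ligand exporter Disp1, stood at 23.4 and 34.3 TPM in Qk_KO libraries, against 13.6 and 11.8 TPM in control libraries (log2 fold change 1.10, adjusted p = 0.0522 by limma). Scube3, whose family helps release the ligand, stood at 19.8 and 15.9 TPM in Qk_KO libraries, against 14.0 and 13.3 TPM in control libraries (adjusted p = 0.191 by limma).

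In the list of other receptors and transcription factors, 0 of 5 genes tested were called, with a median log2 fold change of 0.33. Gpc4, a glypican of the cell surface, stood at 223 and 141 TPM in Qk_KO libraries, against 139 and 140 TPM in control libraries. The groups were apart by little, and Qk_KO replicate 1 alone stood out. Gpc6, another glypican, stood at 31.7 and 30.3 TPM in Qk_KO, against 23.9 and 27.6 TPM in control libraries.

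For the intracellular relay, which holds the kinases and adaptors that process Gli proteins, 0 of 19 genes were called, with a median of 0.14 and a range of -0.26 to 0.66. Prkar1a, the regulatory subunit of protein kinase A, which restrains the pathway, stood at 229 and 247 TPM in Qk_KO libraries, against 269 and 278 TPM in control libraries (adjusted p = 0.214 by limma). Csnk1a1, a casein kinase that phosphorylates Gli proteins, stood at 272 and 251 TPM in Qk_KO, against 238 and 259 TPM in control libraries. In the list of primary cilium genes, 0 of 23 were called, with a median of 0.10 and a range of -0.36 to 0.63. Tulp3, which carries receptors into the cilium, stood at 65.2 and 49.8 TPM in Qk_KO, against 48.0 and 56.3 TPM in control libraries. Ift27, of the intraflagellar transport machinery, stood at 63.9 and 59.9 TPM in Qk_KO, against 52.8 and 41.1 TPM in control libraries (adjusted p = 0.144 by limma).

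Of the 22 target genes of neural progenitors, 17 were tested, of which 0 rose, 1 fell and 16 were not called. The gene that fell was Ccnd1, the cyclin of G1 phase, at 29.6 and 36.3 TPM in Qk_KO libraries, against 66.1 and 80.5 TPM in control libraries. Its log2 fold change was -1.13 (SE 0.15, adjusted p = 0.0404 by limma), and the call was lost whichever library was left out, with adjusted p between 0.0548 and 0.241, and also with no filter (0.139) and no trend (0.0735). Ccnd1 is also a target of other growth signals. Targets with roles in ventral identity differed widely in level. Olig2, a transcription factor of the oligodendrocyte lineage, was at 377 to 517 TPM over the 4 libraries and its relative Olig1 at 410 to 546 TPM. Nkx2-2 was at 21.1 to 52.6 TPM and Nkx6-2 at 3.18 to 9.79 TPM. The groups overlapped for these 4 genes. Nkx2-1 and Nkx6-1 were at most 0.52 and 0.05 TPM, and Foxa2, a floor plate gene, was listed at 0 in all 4 libraries. These 7 genes are named here after their values were seen.

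**Figure D4:**
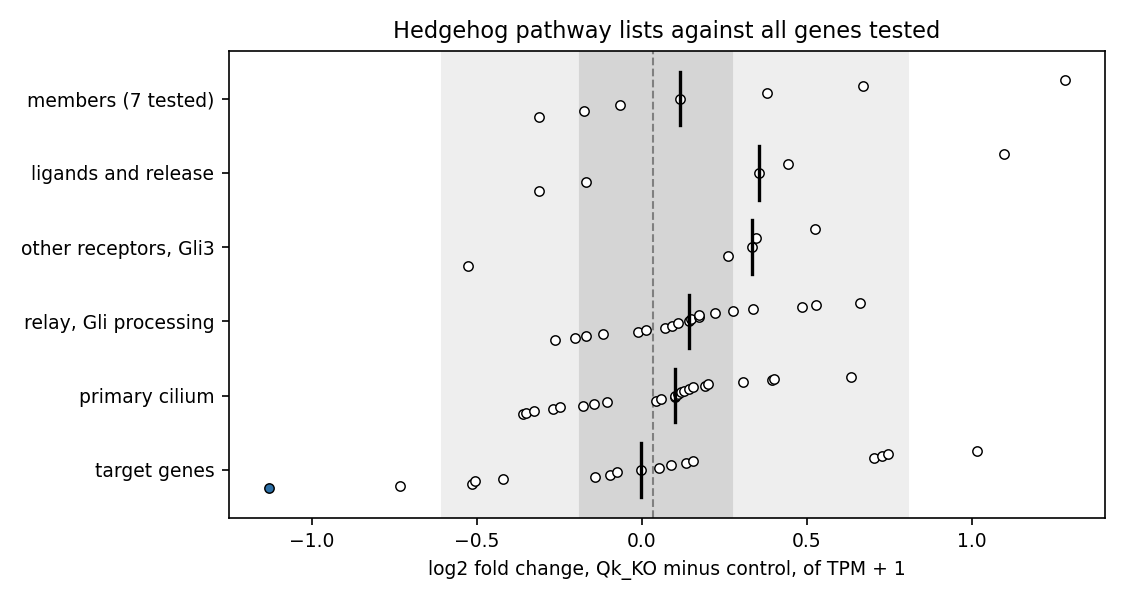
Log2 fold changes of TPM + 1, Qk_KO minus control, of the tested genes in each list, 1 point a gene, with Ccnd1 filled as the gene called and black bars at list medians. The dashed line is the median of all 13260 genes tested, 0.04, and the dark and light bands span their 25th to 75th and 5th to 95th percentiles; Gli2, Disp2 and Nrp2, at 1.28, 1.10 and 1.02, and Igfbp6 and Ccnd1, at -0.73 and -1.13, lie outside the light band.

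The genes whose pattern over the 4 libraries was most like that of Ptch1 were Lix1l, Aldh1l2 and Magi2, by the root mean square difference of log2(TPM + 1) after centring each gene. Their differences were 0.02, 0.03 and 0.03 log2 units, and 84 of 12210 named genes lay within 0.1. For Gli1, whose values near 0 give an almost flat pattern on this scale, 2825 genes lay within 0.1, with Ube4a, Parp11 and Cap1 nearest.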

How the data were processed

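RNA of 4 libraries, 2 Qk_KO and 2 control, was sequenced on the Ion Proton System after poly(A) selection, as the labels' protocols state. For each library the authors deposited a table of TPM by gene. The submitters' processing notes name STAR 2.4.1d, RSEM 1.3.0, mm10 and GRCm38.p4. Which annotation and strand setting were used, and how many reads, is not given in the sources used here. As shares of a fixed total, TPM values of different genes are not independent.

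Values were taken as log2(TPM + 1), a pseudocount of 1. The 13260 genes averaging 1 TPM or more entered 1 limma 3.58.1 fit (R 4.3.3, mean-variance trend, two-sided, Benjamini-Hochberg over all genes, threshold 0.05), which was also tested on simulated data. An exact permutation of 2 against 2 libraries cannot go below 0.333. Members and lists were chosen with earlier results of these data known. Of 199 list entries, all were matched, 2 by synonym. Named genes are the 9 members, Qk, the called genes of each list or, where none was called, its 2 most abundant, and the genes nearest to Gli1 and Ptch1; others are said to be outside this rule or stand beside a member. Motif counts used GENCODE M21 transcripts and RefSeq promoter windows. The alternatives were 2 other pseudocounts, no filter, a minimum average of 5 TPM, 2 scalings, no trend, robust settings, a replicate block and leaving out each library. Python 3.11.15 and matplotlib 3.10.9 drew the figures.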

Additional observations from a re-analysis of the deposited data

How the results depend on the processing

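With 2 libraries a group and no known depth, only large or tight differences can pass. Over all genes, 430 passed (limma, adjusted p under 0.05), and 0 with no filter (4327 at an unadjusted p under 0.05), 649 with a minimum average of 5 TPM, 41 with no trend and 4 to 148 with 1 library left out. Of the members each alternative tested, 0 passed, except with the replicate block; Gli1 and Hhip were tested with no filter only, and Gli2 was not tested with the minimum of 5 TPM. The labels do not say whether libraries with the same replicate number share a culture or batch. Deviations of same-numbered libraries correlated at 0.114 over 13260 genes, from 2 pairs, which are too few to settle this. With the replicate block 1278 genes passed by limma, or 9.64% of the 13260 tested. Among them were 2 of the 7 members tested, Gli2 (adjusted p = 0.0397 by limma) and Boc (0.0370). So were 6 of the 69 other pathway genes tested. Of those other genes 1 passed in the main setting, 2 with a pseudocount of 0.1, 3 with that higher minimum, and 0 with no filter, with no trend or with any 1 library left out; in those last settings 0 is also the count for the members. The log2 fold change of Qk, -2.38, is by construction the same with no filter, where its adjusted p was 0.108 (limma), and it ranged from -2.52 to -2.25 with 1 library left out. Of 90 values of members under the alternatives, 4 changed sign: Cdon, at -0.18, was 0.20 without Qk_KO replicate 2 and 0.29 without control replicate 1 (range -0.64 to 0.29), and Gas1, at -0.07, was 0.28 and 0.08 (range -0.41 to 0.28). Where calls were lost, the cause was not tested.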

Other observations

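In 5 of the 7 members tested, Gli2, Boc, Cdon, Gas1 and Sufu, replicate 1 was above replicate 2 in both Qk_KO and control cells, or 71.4% of them, beside 27.7% of the 13260 genes tested. Ptch1 ran the other way in Qk_KO cells only, at 37.7 and 53.5 TPM, and Smo ran the other way in control cells only, at 78.4 and 86.4 TPM.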
